A study of Mus musculus with 2 samples.

Results

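Interferon-high tumour cells were the tumour-gated cells of mouse pancreatic tumours that carried many transcripts of the Ifit genes. Members were chosen on raw counts of unique molecular identifiers (UMIs), 1 UMI standing for 1 captured transcript. Barcodes were kept when 500 or more genes were seen and mitochondrial UMIs did not exceed 15%. A tumour-gated cell had at least 10 UMIs over Krt8, Krt18, Krt19 and Cdkn2a, none of Ptprc or Pdgfra, and fewer than 50 over the acinar enzymes Ctrb1, Prss2, Try4 and Clps. Cells with many transcripts of other tumour states were left out: cycling (Mki67, Top2a), intestinal-like (Lgals4, Rbp2, Spink4, Dmbt1), gastric mucous-like (Muc5ac, Muc5b) and a Grem1 Inhba state (Grem1, Inhba, Igfbp3). Of the cells that remained, those with at least 10 UMIs over Ifit1, Ifit3 and Ifit3b were the members. There were 622 control and 627 knockout members, 1249 of 22472 kept barcodes and of 13749 tumour-gated cells. The comparison cells, called the other tumour cells, passed the same gate and exclusions with an Ifit sum under 10. They numbered 3156 (control) and 1344 (knockout).

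Both libraries came from KPC pancreatic cancer cells placed orthotopically, that is in the pancreas, and taken at day 21. The control mice were Porcnfl/fl littermates, labelled WT, and the knockout mice were Csf1r-Cre;Porcnfl/fl, so both groups carried the floxed allele. Porcn is an enzyme of Wnt secretion, and Csf1r-Cre drives its deletion in cells of the macrophage lineage, not in the implanted tumour cells. Tumours of 5 mice were pooled for each genotype and made into 1 library by 10x Genomics 3′ chemistry. With 1 library per genotype there is no replicate. No difference between the libraries could be tested, and all intervals below are 95% intervals that cover counting error only.

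Interferons are cytokines that cells release on viral infection or on sensing nucleic acids, and that lymphocytes release on activation. Type I interferons act through Ifnar1 and Ifnar2, and many of their target genes carry the interferon-stimulated response element (ISRE). Interferon gamma acts through Ifngr1 and Ifngr2, and many of its target genes carry the gamma-activated site (GAS). The Ifit proteins bind foreign RNA and are among the strongest targets of the type I pathway. Cxcl10 draws T cells that carry Cxcr3, and Ubd is a ubiquitin-like modifier induced by interferon gamma and tumour necrosis factor.

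The stretch before the start site is shown for the 5 marker genes and for Rsad2, because it carries the motif that most of them share. Rsad2 was taken because the lower of its ratios in the libraries was the highest outside the rule genes, among genes past the level filter in both. The sequences are from RefSeq (GRCm38.p6), 250 bases each on the gene's own strand, 5′ to 3′, and capitals mark ISRE matches. The motif was searched as GAAA, any 2 bases and GAAA on both strands, and the GAS as TTC, any 3 bases and GAA, which reads the same on both strands.
Ifit1, chr19:34640639-34640888, plus strand: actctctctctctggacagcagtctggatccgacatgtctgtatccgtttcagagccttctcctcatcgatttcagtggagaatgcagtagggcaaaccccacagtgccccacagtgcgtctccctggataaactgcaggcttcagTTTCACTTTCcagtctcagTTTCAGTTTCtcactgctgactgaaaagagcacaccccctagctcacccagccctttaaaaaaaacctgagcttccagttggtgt
Ifit3, chr19:34583279-34583528, plus strand: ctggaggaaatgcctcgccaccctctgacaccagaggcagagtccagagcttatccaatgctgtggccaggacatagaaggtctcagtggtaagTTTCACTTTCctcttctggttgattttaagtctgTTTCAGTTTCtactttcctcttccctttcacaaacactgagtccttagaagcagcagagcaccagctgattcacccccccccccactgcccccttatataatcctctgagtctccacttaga
Ifit3b, chr19:34607707-34607956, plus strand: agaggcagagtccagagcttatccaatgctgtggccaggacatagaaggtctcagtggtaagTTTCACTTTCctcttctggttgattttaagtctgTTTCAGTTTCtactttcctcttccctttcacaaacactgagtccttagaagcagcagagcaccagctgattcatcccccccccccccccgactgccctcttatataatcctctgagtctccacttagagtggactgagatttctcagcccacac
Cxcl10, chr5:92348890-92349139, minus strand: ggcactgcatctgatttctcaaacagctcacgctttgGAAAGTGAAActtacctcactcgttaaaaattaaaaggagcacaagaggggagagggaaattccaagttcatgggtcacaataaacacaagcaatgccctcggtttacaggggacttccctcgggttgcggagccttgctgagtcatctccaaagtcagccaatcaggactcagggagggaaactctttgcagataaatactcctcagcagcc
Rsad2, chr12:26456453-26456702, minus strand: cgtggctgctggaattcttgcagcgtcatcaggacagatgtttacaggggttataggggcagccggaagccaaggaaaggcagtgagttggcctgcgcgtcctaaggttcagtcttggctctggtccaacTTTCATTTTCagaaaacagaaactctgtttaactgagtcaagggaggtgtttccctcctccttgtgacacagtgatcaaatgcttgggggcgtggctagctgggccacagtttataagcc
Ubd, chr17:37193642-37193891, plus strand: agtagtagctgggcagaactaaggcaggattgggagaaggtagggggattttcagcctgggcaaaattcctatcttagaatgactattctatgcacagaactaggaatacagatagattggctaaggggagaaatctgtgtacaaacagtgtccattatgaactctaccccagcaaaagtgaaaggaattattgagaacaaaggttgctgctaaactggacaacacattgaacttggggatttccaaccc

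Counted from the start site as 0, Ifit1 held TTTCACTTTC at -104 to -95 and TTTCAGTTTC at -85 to -76. Ifit3 held the same pair of matches at -156 and -122, and Ifit3b at -188 and -154. The stretches of Ifit3 and Ifit3b shared an unbroken run of 169 identical bases that includes both matches. Cxcl10 held GAAAGTGAAA from -213 to -204, and Rsad2 held TTTCATTTTC from -120 to -111. Over the 300-base windows of the table, which run to 50 bases past the start site, 4 of the 5 markers had an ISRE match. Ubd had none, and no marker had a GAS match. Of all 32851 windows 3.44% held an ISRE match and 8.30% a GAS match. A match says only that these letters are present.

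Ifit1, Ifit3 and Ifit3b lie together on chromosome 19. Ifit3 and Ifit3b are near copies: 34.7% of the 91-base words in the longest Ifit3 transcript also occur in Ifit3b, so reads between them may be assigned uncertainly. In the last 600 bases, where 3′ libraries read, the shared part was 5.10% for Ifit3 and 0% for Ifit3b. The members' Ifit UMIs were 36.0% Ifit1, 51.9% Ifit3 and 12.1% Ifit3b for control, and 33.0%, 54.8% and 12.1% for knockout.

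The label was checked against markers that the gate did not use. Cdh1, the epithelial cadherin, stood at 264 counts per 1000000 UMIs (CPM) in control members and 236 CPM in knockout members, against 318 and 297 CPM in the other tumour cells. Epcam was absent apart from 1 UMI in each library's members, Krt7 gave 3 UMIs and 1 UMI, and Cldn4 gave 0 UMIs in both. Vimentin (Vim), a mesenchymal filament gene, was at 4206 and 4698 CPM. Of the epithelial markers outside the gate, Cdh1 was thus present, while Epcam, Krt7 and Cldn4 were nearly or wholly lacking. Krt8, Krt18 and Krt19 were part of the gate and check nothing. The markers thus go partly against the epithelial side of the label, and the cells are called by their gate and Ifit sum, as members.

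Markers of other cells were low, apart from the fibroblast list, which was the highest. The summed level of 10 macrophage markers was 21.2 CPM in control members and 14.8 CPM in knockout members, beside 18.3 and 12.9 CPM in the other tumour cells. The 10 T and NK markers summed to 1.01 and 12.3 CPM, beside 1.82 and 6.30 CPM, and Cd3g, Cd8a, Nkg7, Gzmb, Klrb1c and Ncr1 were at 0 in control members. The 6 B and plasma markers summed to 2.63 and 10.2 CPM, beside 6.90 and 37.1 CPM. The 7 fibroblast markers summed to 172 and 43.2 CPM, beside 284 and 122 CPM. Few cells weighed on this sum. Col1a1, Col1a2 and Col3a1 gave 358, 386 and 552 of its 1701 UMIs in control members. Of each gene's UMIs, between 80.3% and 81.3% lay in 10 of these members. In the other control cells 10 cells held 72.2%, 68.9% and 43.2% of them. The part of 1 control member in these genes is given below. Neutrophil, dendritic, endothelial and acinar lists each stayed between 0.198 and 21.8 CPM in members. Scrublet called 2 control and 5 knockout members doublets. No member barcode was shared between the members of the libraries, and 46 barcodes in all occurred in both. Porcn itself gave 7 UMIs in 167 control cells with C1q and Csf1r transcripts and 3 UMIs in 203 such knockout cells, too few to check the deletion, and a 3′ tag need not lie in the deleted part.

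**Figure D1:**
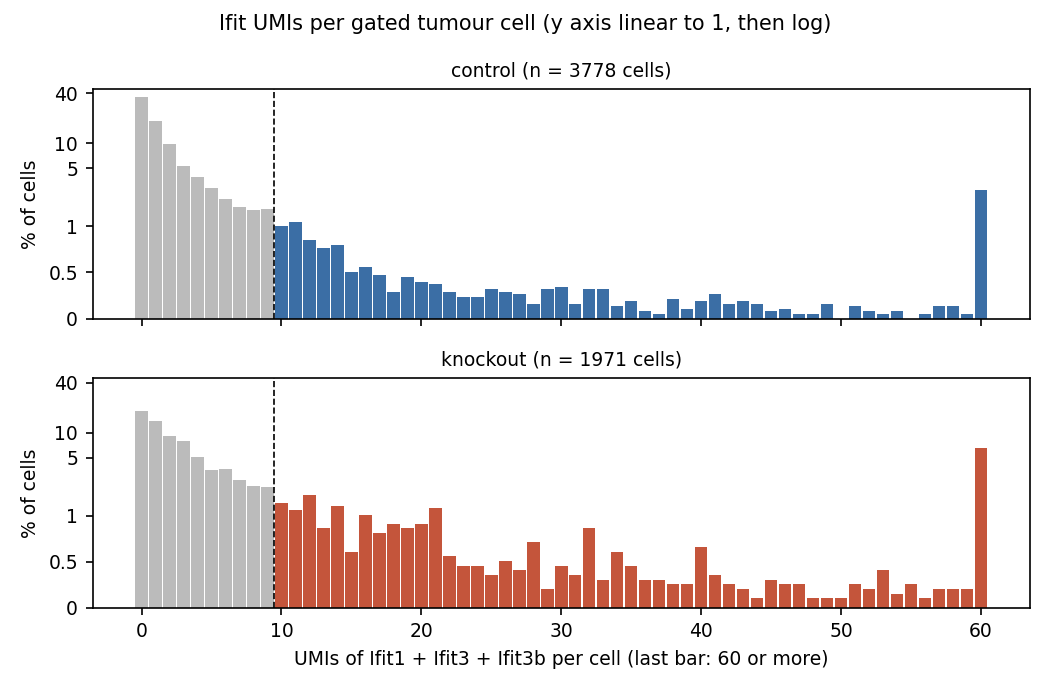
Percent of gated tumour cells (vertical axis, linear to 1 and then logarithmic) at each sum of Ifit1, Ifit3 and Ifit3b UMIs, in the control library (3778 cells) and the knockout library (1971 cells). Coloured bars are members and the last bar holds all cells at 60 or more; there is no gap at the dashed threshold, and 35.9% of control but 18.2% of knockout cells are at 0.

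The members were the upper part of a continuous range of Ifit counts. No Ifit UMI was seen in 1356 control cells (35.9%) and 358 knockout cells (18.2%). At the threshold the numbers ran on without a break, with 61 control and 43 knockout cells at a sum of 9 and 38 and 28 cells at 10. Within members the sum ran from 10 to 710 in the control library, with a median of 24, and from 10 to 437 in the knockout library, with a median of 28. A sum of 60 or more was reached by 104 control and 127 knockout members. Members held 82.7% of the Ifit UMIs of the gated control cells and 88.8% of those of the knockout cells.

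Cells just inside and just outside the threshold were compared as a description. In the control library the 80 cells at a sum of 10 or 11 had Isg15 at 370 CPM, and the 121 cells at 8 or 9 had 265 CPM. In the knockout library the 51 and 88 such cells had 286 and 254 CPM. Cxcl10 stood at 213 CPM inside and 41.3 CPM outside in the control library, but at 73.3 CPM inside and 174 CPM outside in the knockout library. The order of Cxcl10 across the threshold was thus opposite in the libraries, with few cells on either side.

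Members made up 16.5% of the control cells that passed the exclusions (622 of 3778, exact interval 15.3 to 17.7%). They made up 31.8% of the knockout cells (627 of 1971, 29.8 to 33.9%), a ratio of 1.93 (1.73 to 2.16). The threshold was in raw UMIs and cells differed in depth, so the share was repeated with each cell thinned at random to 10000 UMIs and shallower cells left out (1592 control, 623 knockout). The shares were then 15.8% (14.3 to 17.4) and 30.5% (28.0 to 33.0). The knockout library had the higher share on both scales. The requirement of no Ptprc UMI removed 85 of 3863 otherwise eligible control cells (2.20%) and 148 of 2119 knockout cells (6.98%), and 14 and 62 of those removed had an Ifit sum of at least 10. Members were deeper than the other tumour cells, with a median of 14374.5 against 10523 UMIs in the control library and 14688 against 11176.5 in the knockout library. Their median mitochondrial share was 1.76% against 2.31%, and 1.61% against 1.93%. The part of depth in the gene differences below was not tested beyond the thinned and depth-matched repeats.

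The same Ifit threshold was met in every other tumour state, so that the members are the cells of no other state rather than all cells with high Ifit counts. Over all gated tumour cells it was met by 1744 of 8528 control cells (20.5%) and 2102 of 5221 knockout cells (40.3%). A cell past the limits of several states was counted in each of them, so the state sets overlap. Grem1 Inhba cells had the highest share in each library, 34.5% (32.0 to 37.0) in control and 65.6% (63.1 to 68.1) in knockout. After thinning these were 23.96% and 52.4%, still above the 15.8% and 30.5% of the members' own set. Cycling cells stood at 24.5% and 49.6% on raw counts, but at 11.8% and 27.3% after thinning. Their median depth was 30441 and 28943 UMIs, and thinning moved them from above the members' set to below it. Gastric mucous-like cells stood at 21.1% and 31.3% and, thinned, at 13.9% and 19.96%. Intestinal-like cells gave 18.4% and 25.8% and, thinned, 9.52% (7.82 to 11.5) and 11.2% (7.81 to 15.5). In the other 4 sets the thinned knockout share lay above the control share with no overlap of the counting intervals.

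**Figure D2:**
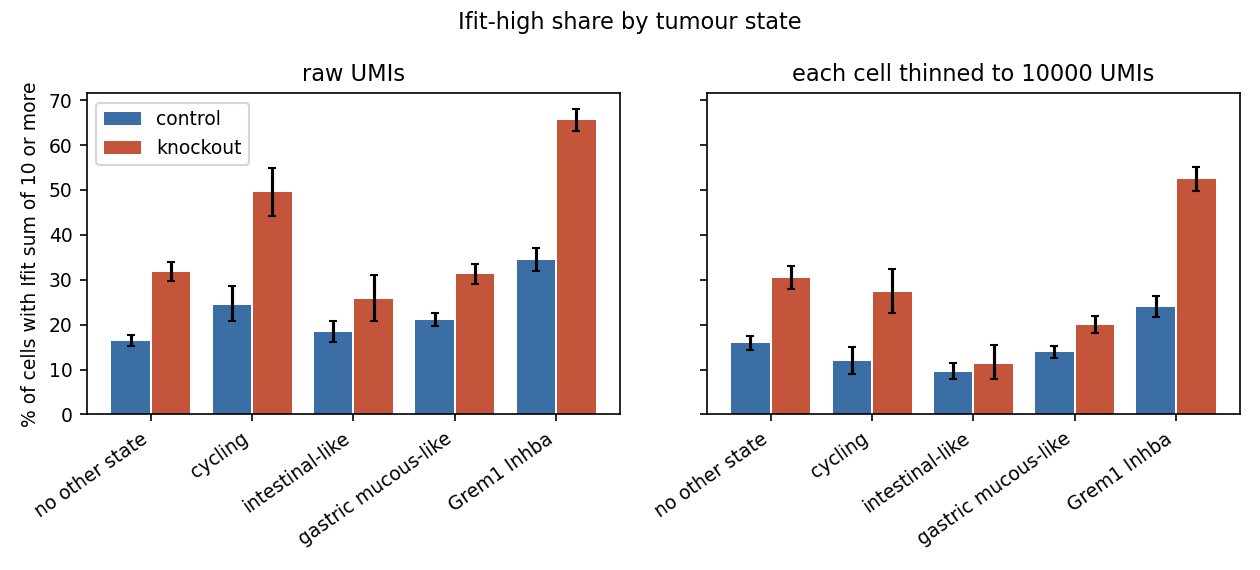
Percent of gated tumour cells with an Ifit sum of 10 or more (vertical axis) by tumour state, for raw UMIs on the left and for cells thinned to 10000 UMIs on the right, with bars for the control (blue) and knockout (red) library and exact 95% binomial intervals. The Grem1 Inhba bars are the highest, 34.5% and 65.6% on raw counts, and the intervals cover counting error only.

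What follows compares members with the other tumour cells of the same library as summed levels in CPM. The log2 ratio adds 1 UMI to each sum, and a gene was counted as higher or lower from 2-fold upward among genes with a mean of at least 10 CPM. That mean was over members and the other tumour cells, so a gene low in the other cells could pass only through its level in members. The list counts below leave out genes under this filter, so the shares that were higher are partly set by it. Cells were sorted by 3 interferon-induced genes of the same libraries, so the ratios of other genes describe what went along with them and are no test. Ifit3 was at 1295 CPM in control members and 68.5 CPM in the other control cells, and at 1457 and 108 CPM in the knockout library. Ifit1 was at 897 against 53.3 CPM and 877 against 71.1 CPM. Ifit3b was at 302 against 13.5 CPM and 322 against 24.1 CPM. These 3 values restate the rule. Both libraries reached about the same level in members, while the other tumour cells of the knockout library lay above those of the control library.

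Cxcl10 stood at 601 CPM in control members (585 to 616) and 30.2 CPM in the other control cells (28.5 to 32.0), a log2 ratio of 4.31 (4.22 to 4.41). In the knockout library it stood at 525 CPM (511 to 540) and 56.9 CPM (53.3 to 60.6), a log2 ratio of 3.21. Ubd stood at 95.4 against 19.996 CPM in control (log2 2.25, 2.12 to 2.39) and at 102 against 37.1 CPM in knockout (log2 1.46, 1.32 to 1.61). Both markers were thus higher in members of both libraries, with the smaller ratio in the knockout library, where the comparison cells were higher. Few cells carried much of the Cxcl10: 10 cells held 33.5% of its UMIs in the other control cells and 45.1% in the other knockout cells. In members 10 cells held 25.2% and 36.8%.

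**Figure D3:**
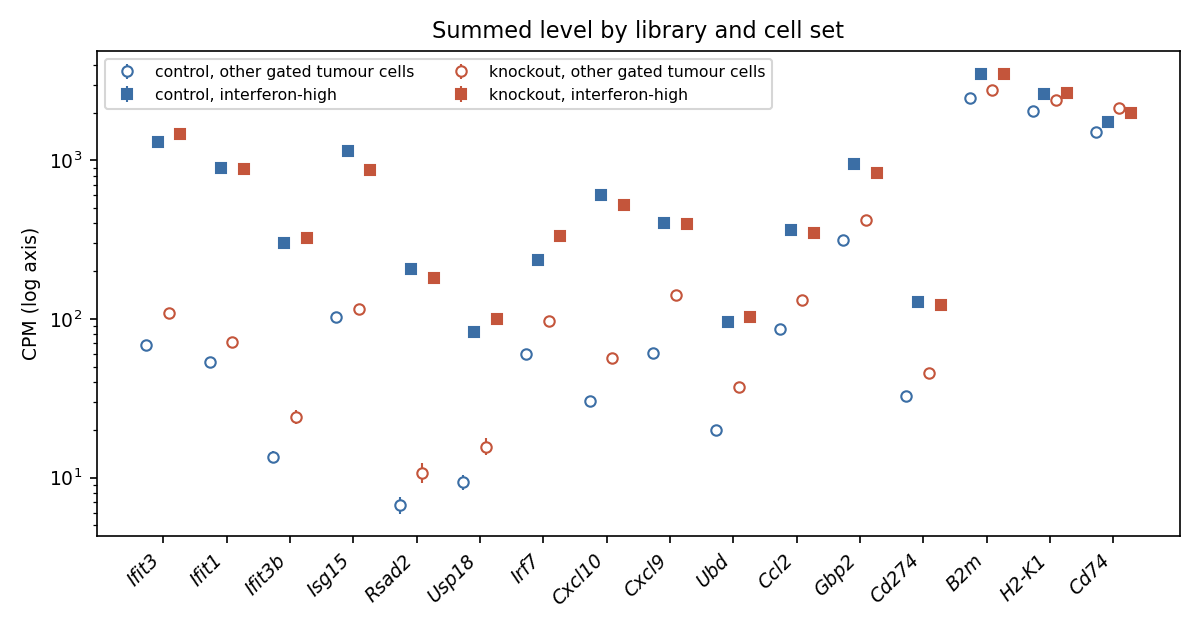
Summed level in CPM (logarithmic vertical axis) of 16 genes in interferon-high cells (filled squares) and other gated tumour cells (open circles) of the control (blue) and knockout (red) library, with exact Poisson 95% intervals where they exceed the symbol. Rsad2 goes from 6.67 to 206 CPM in control, while B2m and Cd74 lie close together in all 4 sets.

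Over all genes 120 of 8379 (1.43%) were at least 2-fold higher in control members and 29 (0.346%) at least 2-fold lower. In the knockout library 74 of 8296 (0.892%) were higher and 45 (0.542%) lower. The median log2 ratio over all genes was -0.12 in control and -0.09 in knockout, which is the level to read the lists against. Of 8140 genes considered in both libraries, 67 were higher in both, 55.8% of the control set and 90.5% of the knockout set, and 51 of the 67 were Ifit rule genes or belonged to the interferon lists below.

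The antiviral effectors were the most numerous of them. Of 43 measured effector genes of interferon-stimulated type, 28 were at least 2-fold higher in control members, with a median log2 ratio of 1.22, and 25 of 44 in knockout members, with a median of 1.18. None of these was 2-fold lower in either library. The list held 48 genes, and those under the level filter are not in these counts. The largest effector ratio was 5.51 in control, for a gene whose level is not given here, and 4.07 in knockout. Rsad2 (viperin, which makes a chain-terminating nucleotide) had, of the genes past the level filter in both libraries, the highest lower ratio outside the rule genes. It went from 6.67 CPM in the other control cells to 206 CPM in control members (log2 4.94, 4.76 to 5.14) and from 10.7 to 181 CPM in knockout (log2 4.07, 3.86 to 4.31). Cmpk2, its neighbour on chromosome 12, went from 6.35 to 70.7 CPM and from 10.98 to 58.1 CPM. Isg15, a ubiquitin-like modifier, went from 102 to 1148 CPM (log2 3.49) and from 115 to 868 CPM (log2 2.92). Ifit2, a further Ifit gene that the rule did not use, went from 15.4 to 184 CPM and from 19.9 to 158 CPM.

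Other effectors had smaller ratios. Oas1a, which makes the activator of RNase L, had log2 ratios of 1.95 in control and 1.71 in knockout. Ifi44 had 2.62 and 2.15, and the Schlafen genes Slfn5 and Slfn8 had 2.90 and 2.27, and 2.22 and 1.88. Bst2 (tetherin, which holds budding virus at the membrane) had 1.52 and 1.30. At the other end Ifitm3, an abundant membrane protein that blocks viral entry, stood at 3345 against 2152 CPM and 3797 against 2339 CPM, log2 ratios of 0.64 and 0.70. Ifitm1 and Ifi27 lay between -0.16 and 0.17 in both libraries.

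Sensors of nucleic acid followed the effectors. Of 13 measured in control 12 were at least 2-fold higher, with a median of 1.48, and of 14 in knockout 12, with a median of 1.26. The list held 19 sensors, and those under the level filter are not in these counts. Dhx58, at 4.03 CPM in the other control cells, passed the filter through its 21.4 CPM in control members. Dhx58 (LGP2, a regulator of RNA sensing) had log2 ratios of 2.40 and 2.58, the only one of the 20 highest genes with the larger value in knockout. The Ifi200 family, which includes DNA sensors, was represented by Ifi207 at 2.78 and 2.15, Ifi205 at 2.12 and 1.81 and Mndal at 1.47 and 1.25. Ddx58 (RIG-I) and Ifih1 (MDA5), sensors of viral RNA, had 1.07 and 1.10, and 1.28 and 1.09. Tmem173 (STING) was below 2-fold at 0.79 and 0.46. Family members of Ifi200 and Schlafen genes are similar in sequence, and how reads were split between them is uncertain.

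The receptors did not go along. Of 16 receptor and transducer genes 2 were at least 2-fold higher in control and 1 in knockout, with medians of 0.04 and -0.02. Ifnar1 stood at 22.4 against 26.0 CPM in control and 20.5 against 23.9 CPM in knockout. Ifngr1 stood at 88.3 against 97.9 CPM and 101 against 98.5 CPM. Jak1, Jak2 and Ifngr2 each lay between -0.13 and 0.05 in log2. The transcription factors that are themselves interferon targets had the larger values: Irf7 at 1.95 and 1.79, Stat2 at 1.26 and 0.96, Irf9 at 0.72 and 0.49. Irf1, an early target of interferon gamma, had 0.69 and 0.26. Irf3, which acts before interferon is made, had -0.29 and -0.16.

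Of 5 measured negative regulators 2 were at least 2-fold higher in each library. Usp18, which removes Isg15 and blocks Ifnar2, went from 9.33 to 82.9 CPM in control (log2 3.15) and from 15.7 to 99.9 CPM in knockout (log2 2.67). Socs1, an inhibitor of Jak kinases, went from 21.7 to 109 CPM (log2 2.33) and from 28.0 to 77.1 CPM (log2 1.46). Socs3 was within 0.28 of 0 in both.

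Chemokines were higher in members in 5 of 7 cases in each library, with medians of 2.08 and 1.50. Cxcl9, a Cxcr3 ligand induced by interferon gamma, went from 60.5 to 405 CPM in control (log2 2.74) and from 141 to 399 CPM in knockout (log2 1.50). Ccl2, which draws monocytes, went from 86.8 to 366 CPM and from 132 to 349 CPM. Ccl7 had log2 ratios of 1.36 and 1.77. Cxcl1, a neutrophil attractant, did not follow, with 0.14 and -0.60. Ccl8 was also among the 20 highest genes with 2.11 and 1.86, but 59.8% of its control UMIs in members came from 10 cells.

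The guanylate-binding proteins and immunity-related GTPases attack vacuoles of intracellular pathogens and respond strongly to interferon gamma. Of 17 measured, 14 were at least 2-fold higher in control members, with a median of 1.22, and 4 in knockout members, with a median of 0.89. All 17 were above 0 in both libraries. Relative to the median over all genes the counts were 15 and 7. Gbp2 went from 314 to 942 CPM in control and from 421 to 827 CPM in knockout, log2 ratios of 1.58 and 0.97. Gbp5 had 2.05 and 1.50, and Iigp1 had 1.20 and 0.70.

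Genes of antigen presentation differed less. Of 22 class I genes 1 was at least 2-fold higher in control (H2-T22, 135 to 281 CPM) and 0 in knockout, with medians of 0.54 and 0.32. B2m, the class I light chain, went from 2462 to 3522 CPM and from 2755 to 3488 CPM. H2-K1 went from 2039 to 2630 CPM and from 2387 to 2643 CPM. The peptide transporter Tap1 had 0.83 and 0.62 in log2. None of the class II genes reached 2-fold, 0 of 7 in control and 0 of 8 in knockout, and their medians were 0.25 and -0.14. Cd74, the class II invariant chain, was at 1752 against 1500 CPM in control and 1996 against 2143 CPM in knockout.

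Of the checkpoint and ubiquitin-like list 4 of 10 genes were at least 2-fold higher in control and 4 of 9 in knockout. Cd274 (PD-L1) went from 32.6 to 128 CPM (log2 1.98) and from 45.4 to 123 CPM (log2 1.44). Tnfsf10 (TRAIL) had 1.80 and 1.13, and Ido1, which breaks down tryptophan, went from 9.17 to 28.7 CPM and from 14.7 to 29.4 CPM. Cd47, a signal against phagocytosis, had 0.35 and 0.27.

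Lists outside the interferon pathway had smaller shifts from the overall median than the effectors, sensors and chemokines. Targets of NF-kB had medians of 0.14 and 0.11, cell death genes 0.19 and 0.19, p53 targets 0.03 and 0.05 and cell cycle genes 0.05 and 0.05. In the NF-kB list 1 of 11 genes was at least 2-fold lower in each library, at -4.78 and -5.66. In the p53 list 1 of 6 was at least 2-fold higher in control, at 1.54, and 0 of 6 in knockout. Within the cell death list Casp4, a sensor of bacterial lipopolysaccharide, had 0.90 and 0.64, and Mlkl, the executor of necroptosis, had 0.90 and 0.78. Hypoxia and glycolysis genes had 0.38 and 0.20, with 10 of 10 above 0 in control and 8 of 10 in knockout. Epithelial identity genes had -0.28 and -0.40, with 0 of 7 and 0 of 9 above 0. Of these, 1 in control and 3 in knockout were at least 2-fold lower, with lowest ratios of -2.22 and -8.39. Few comparison cells weighed on this list: Epcam, 1 of its genes, gave 752 UMIs in only 23 of the other knockout cells. The knockout ratio of Epcam was -7.83, so the lowest ratio belonged to another gene, whose spread over cells is not given here. Onecut2 (a hepatic and pancreatic transcription factor) had -0.61 and -0.40. Wnt pathway genes had -0.43 and -0.32, with 1 of 8 above 0 in each library. The Wnt ligand Wnt4 was at 39.8 against 68.4 CPM in control and 12.2 against 32.0 CPM in knockout. Immediate early and heat shock genes had 0.02 in control and -0.42 in knockout, where Atf3 had -1.01.

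**Figure D4:**
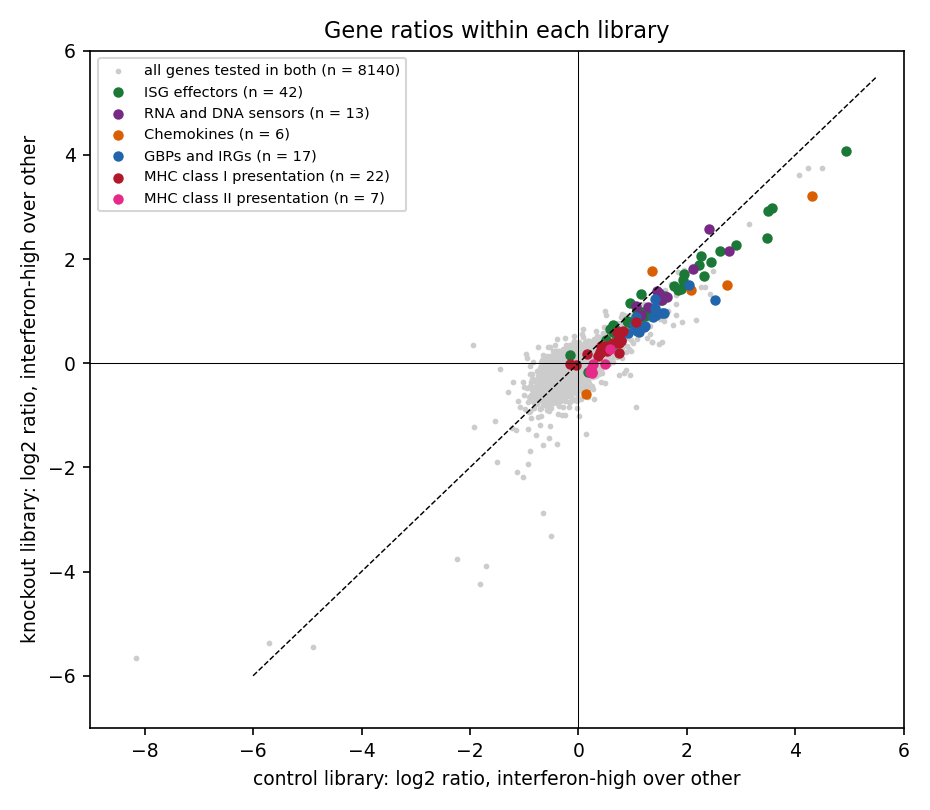
Log2 ratio of interferon-high over other gated tumour cells for each gene, in the control library (horizontal) and the knockout library (vertical), for 8140 genes in grey and 6 gene lists in colour. Effectors, sensors and chemokines extend to the upper right, where the control ratio is mostly the larger one, and class II genes sit near 0.

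Of the 20 genes with the highest ratio in both libraries together, 18 had a promoter window in the table and 11 of those (61.1%) held an ISRE match. Over all genes with a window the share was 3.99%. The Isg15 window held 3 overlapping matches between -78 and -57, and Ifit2 held none in either of its windows. GAS matches were in 2 of the 18 (11.1%), against 9.55% of all genes. The 20 were chosen by their ratios, and this is a description of their windows.

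Of the 10 genes with the lowest ratio, 5 had most of their control comparison UMIs in 10 cells. Hbb-bs and Hba-a1, the haemoglobin genes of red cells, gave 1 and 3 UMIs in control members. In the other control cells they gave 2211 and 797 UMIs, of which 99.2% and 99.7% lay in 10 cells. Slpi (88.3% in 10 control cells), Igfbp6 (63.6%) and Apoe (70.4%) were similar. A repeat left out cells with at least 2 Epcam UMIs, at least 5 over Slpi, Igfbp6 and Upk3b, or at least 10 over Hbb-bs and Hba-a1. This took out 53 control and 30 knockout comparison cells, 1 control member and 0 knockout members. The number of lower genes went from 29 to 18 in control and from 45 to 10 in knockout. Of the genes spread over more cells, Atp1b1, a sodium pump subunit, was at 48.1 against 112 CPM in control and 44.6 against 105 CPM in knockout, log2 ratios of -1.22 and -1.23. Btg2, an antiproliferative gene, had -1.15 and -1.28. Rbms3, an RNA-binding protein, had -1.49 and -1.90, and the long non-coding Mir99ahg had -1.93 and -1.22. Pkhd1, a gene of the primary cilium, had -1.82 and -4.24, with 31.8% of its control and 66.2% of its knockout comparison UMIs in 10 cells.

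Among members the markers differed in how they were spread. Isg15 was seen in 98.1% of control members and 97.0% of knockout members. Cxcl10 gave no UMI in 393 of 622 control members (63.2%) and 417 of 627 knockout members (66.5%). Cxcl10 was carried by few cells: the top 10% of members held 79.6% of its UMIs in control and 86.9% in knockout. For Cxcl9 the top 10% held 92.2% and 91.2%, and for Isg15 38.3% and 34.97%. Ubd was without a UMI in 65.0% and 68.6% of members. With every cell thinned to 2000 UMIs, Cxcl10 was seen in 22.7% of control members (19.5 to 26.2), 2.77% of the other control cells and 2.08% of 48 cells with Cd3e or Cd79a UMIs, a lymphocyte set that should lack it (1 cell, 0.0527 to 11.1%). In the knockout library these were 20.6%, 5.00% and 2.19% of 776 (1.28 to 3.48). Unthinned, the shares were 36.8%, 7.64% and 5.45% in control at median depths of 14374.5, 10523 and 3699 UMIs. They were 33.5%, 11.8% and 4.84% in knockout at 14688, 11176.5 and 3656.5 UMIs. The members lay above the interval of the lymphocyte set in both libraries. That set was also required to have no UMI of Krt8, Krt18, Krt19 or Cdkn2a, so it may understate stray transcripts of tumour cells. With 1 positive cell of 48, the control background is too loose to place the other control cells against it.

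Isg15, Rsad2, Cxcl10 and Ccl2 were highest in the members with the highest Ifit sum, and the class II gene Cd74 was not. In members with a sum of 10 to 14, 15 to 24 and 25 or more (171, 144 and 307 control cells), Isg15 stood at 484, 688 and 1679 CPM. In the knockout library (129, 154 and 344 cells) it stood at 320, 513 and 1208 CPM. Rsad2 stood at 32.7, 58.0 and 356 CPM in control and at 32.9, 51.9 and 288 CPM in knockout. Cxcl10 stood at 308, 441 and 816 CPM in control and at 91.9, 222 and 804 CPM in knockout. Ccl2 stood at 174, 217 and 527 CPM, and at 104, 136 and 525 CPM. Other chemokines did not climb in this way. Cxcl9 stood at 128, 353 and 565 CPM in control but at 505, 174 and 461 CPM in knockout. Ccl8 stood at 20.1, 55.3 and 35.6 CPM in control and at 40.7, 19.3 and 32.5 CPM in knockout. Cd74 stood at 1836, 1914 and 1639 CPM and at 2199, 2010 and 1922 CPM, with no rise along the sum. The median depth of these bins was between 13189 and 15501 UMIs. With each cell thinned to 10000 UMIs, Cxcl10 stood at 663, 500 and 976 CPM in control and at 315, 280 and 1052 CPM in knockout. The highest bin thus stayed the highest, but the middle bin was the lowest. Over cells, Spearman's rho between the Ifit sum and Isg15, each per UMI total, was 0.66 in control and 0.64 in knockout. With Cxcl10 it was 0.18 and 0.29, with Cxcl9 -0.03 and -0.05, and with Ubd 0.04 and 0.03. Cells of 1 library share its ambient RNA and depth, so these are descriptions, and values near 0 between such sparse counts show nothing more.

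Members with Cxcl10 transcripts carried other chemokines and several interferon-induced genes, Ifit3 among them, at higher levels. Members were split at 0, 1 to 4 and at least 5 Cxcl10 UMIs (393, 92 and 137 control cells and 417, 84 and 126 knockout cells), a split chosen after values had been seen. Ccl2 stood at 103, 158 and 1174 CPM in control and at 110, 163 and 1226 CPM in knockout. Cxcl9 stood at 66.5, 441 and 1255 CPM, and at 130, 392 and 1259 CPM. Gbp2 stood at 595, 1139 and 1714 CPM, and at 568, 1094 and 1482 CPM. Socs1 stood at 48.1, 75.8 and 288 CPM, and at 40.4, 89.0 and 186 CPM. Ubd stood at 44.3, 115 and 215 CPM, and at 44.5, 74.0 and 305 CPM. All 5 went up at each step in both libraries. Of the rule genes and effectors, Ifit3 stood at 1091, 1325 and 1804 CPM, and at 1190, 1668 and 2170 CPM. Rsad2 stood at 128, 110 and 466 CPM, and at 107, 244 and 379 CPM. Usp18 stood at 58.8, 90.7 and 140 CPM, and at 84.3, 101 and 149 CPM. These were also highest with 5 or more Cxcl10 UMIs. Irf7 was not, with 248, 189 and 228 CPM in control and 349, 325 and 296 CPM in knockout. Isg15 spanned a smaller range, 962, 1471 and 1424 CPM and 781, 965 and 1083 CPM. Median depth in the 3 classes was 13938, 14242 and 15559 UMIs in control and 14525, 14068 and 15722.5 UMIs in knockout.

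**Figure D5:**
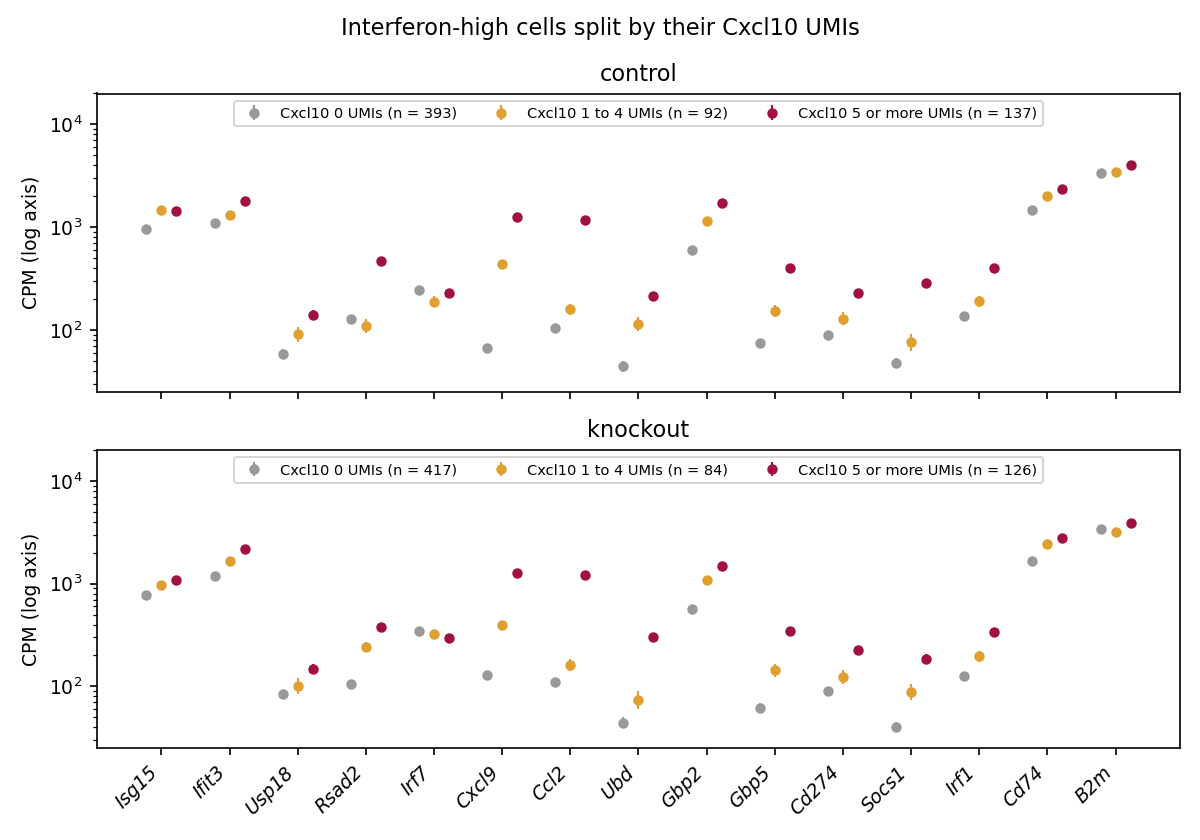
Level in CPM (logarithmic vertical axis) of 15 genes in interferon-high cells with 0, 1 to 4 and 5 or more Cxcl10 UMIs, in the control library above and the knockout library below, with exact Poisson 95% intervals. Cxcl9, Ccl2, Ubd, Gbp5 and Socs1 climb from class to class in both, and Irf7 does not.

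Ifit-high cells of other states were compared with members in Cxcl10, Rsad2 and Ubd. The sets of these other states overlap, since a cell could be counted in several. Cxcl10 was at 601 and 525 CPM in members of the control and knockout library and at 212 and 230 CPM in Ifit-high Grem1 Inhba cells. Rsad2 in the same Grem1 Inhba cells was at 189 and 217 CPM, beside 206 and 181 CPM in members. Cycling Ifit-high cells had Cxcl10 at 873 and 1047 CPM and Rsad2 at 112 and 134 CPM. Gastric mucous-like Ifit-high cells had Cxcl10 at 479 and 685 CPM and Rsad2 at 122 and 151 CPM. Intestinal-like Ifit-high cells had Cxcl10 at 330 and 299 CPM and Rsad2 at 112 and 58.4 CPM. Thus Grem1 Inhba cells were lower than members in Cxcl10 with Rsad2 near the members' level, and intestinal-like cells were lower in both. The intestinal-like cells also had the lowest Ubd in each library, 41.9 and 43.4 CPM, beside 95.4 and 102 CPM in members. Depth differed between these sets, with medians from 14374.5 UMIs in control members to 33131 in control cycling cells.

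Between the libraries, members were close to each other in most genes. Of 6109 genes with a mean of at least 20 CPM, 2 were at least 2-fold higher in knockout members (0.0327%) and 15 at least 2-fold lower (0.246%), and the median log2 ratio was -0.02. The same Ifit threshold was applied to both libraries, so the levels of genes that go with Ifit are partly set by the rule. The effectors had a median log2 knockout over control of 0.01 in members and 0.18 in the other tumour cells. For the guanylate-binding and GTPase list these were -0.13 and 0.32, for class I genes 0.02 and 0.23, and for class II genes 0.25 and 0.68. The level filter was applied to each cell set by itself, so the medians need not cover the same genes. They covered 42 effectors in members and 31 in the other tumour cells, and 17 and 15 guanylate-binding and GTPase genes. Class I had 22 genes and class II 7 in each set. In all 4 lists the other tumour cells had the larger value, and this difference was not tested.

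Ifi27l2a, an interferon-induced gene of the Ifi27 family, stood at 205 CPM in control members and 476 CPM in knockout members (log2 1.22, 1.14 to 1.29). In the other tumour cells it stood at 67.3 and 195 CPM, a log2 ratio of 1.54. Its neighbour on chromosome 12, Ifi27l2b, had 0.76 in members and 0.68 in the other tumour cells. Isg15 went the other way, with -0.40 in members and 0.17 in the others, and Irf7 had 0.51 and 0.68. Cxcl10 had -0.19 in members and 0.91 in the others, and Ubd had 0.10 and 0.89. The knockout library was thus higher in Ifi27l2a, Ifi27l2b and Irf7 in both cell sets, and higher in Cxcl10 in the comparison cells alone. For Cxcl10 in the comparison cells, 10 cells held 33.5% of the control and 45.1% of the knockout UMIs.

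Some differences moved with transcripts of other cells. Igkc, the antibody kappa chain of plasma cells, stood at 17.6 CPM in control members and 66.9 CPM in knockout members, beside the B and plasma marker sums of 2.63 and 10.2 CPM given above. In the other tumour cells Igkc stood at 25.2 CPM in control and 672 CPM in knockout, a larger log2 ratio (4.73 against 1.92 in members). There 10 cells held 88.0% of its knockout UMIs. Ccl5, a chemokine of T and NK cells, stood at 6.89 and 30.8 CPM, beside T and NK sums of 1.01 and 12.3 CPM. The part of other cells in these values was not tested. The collagen genes Col1a1, Col1a2 and Col3a1 had log2 ratios of -2.82, -2.95 and -1.81, and between 80.3% and 81.3% of their control UMIs came from 10 members. Without the 1 control member past the Epcam, Slpi or haemoglobin limits given above they were -0.75, -0.84 and 0.074. Wnt4 had -1.70 in members and -1.09 in the other tumour cells. Complement C3 had -1.49 and -0.57, and the protease Adamts1 -1.50 and -0.72. Crisp1, a secreted cysteine-rich protein, stood at 111 and 26.96 CPM in members and at 106 and 29.3 CPM in the other tumour cells, log2 ratios of -2.04 and -1.84. In members 10 cells held 55.1% of its control UMIs and 80.5% of its knockout UMIs.

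Transcripts of interferons themselves were nearly absent from members. Ifnb1 gave 1 UMI in control members and 0 in knockout members, out of 15 and 76 UMIs in all kept cells. Ifng gave 0 and 5 UMIs in members, out of 506 and 1599 in all kept cells, or 2.95 and 11.8 CPM. Ifna1, Ifna2, Ifna4, Ifna5 and Ifna6 gave 0 UMIs in both libraries. With a limit of 3 counts of the total, a count of 0 in members allows up to 0.304 CPM in control and 0.297 CPM in knockout. Interferon transcripts are short-lived and rare, and a level under these limits was not detectable at this depth.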

How the data were processed

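Gene by barcode matrices of mouse pancreatic tumours, 1 library per genotype, were used as deposited by the authors: whole-number UMI counts that were not normalised. Per the file headers, Cell Ranger 8.0.0 made them. The submitters' processing notes name Cell Ranger 3.1.3 and mm10. The libraries held 173934025 UMIs in 13766 control barcodes and 137527647 UMIs in 12251 knockout barcodes. Counts were summed over cells and scaled to CPM. Ratios carried exact conditional intervals, levels Poisson intervals and shares Clopper-Pearson intervals. Doublets were called by Scrublet (scanpy 1.11.5, expected rate 0.08) and kept, since the member rule has no doublet step. The scripts were tested on simulated data. Tools were python 3.11.15, numpy 2.4.6, scipy 1.17.1, pandas 2.3.3 and matplotlib 3.10.9.

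Member genes and gene lists were chosen with earlier results of these data known. The genes named are the 5 markers, examples of each list (highest level, or largest or smallest ratio), the 20 genes with the highest lower ratio and the 10 with the lowest upper ratio over both libraries, and the 8 highest and 8 lowest of knockout over control by interval bound. Others were chosen after their values were seen. A few listed genes were not analysed here. Positions are from GENCODE M21 and promoters from RefSeq, matched by symbol.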

Additional observations from a re-analysis of the deposited data

Results flagged for a closer look

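The median log2 ratio of members over other tumour cells for the class II presentation genes was above 0 in the control library (0.25) and below 0 in the knockout library (-0.14). It was noted because the 1 library of each genotype moved in opposite directions. The difference was not tested, and the median over all genes was -0.12 in control and -0.09 in knockout.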

How the results depend on the processing

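No paired analysis was possible because each genotype had 1 pooled library. The Ifit threshold set the shares: at a sum of at least 20 they were 9.66% in control and 21.1% in knockout, a ratio of 2.18. Over all gated tumour cells they were 20.5% and 40.3%, and with 8 leukocyte genes at 0 and Cd74 under 5 UMIs the control share was 14.5%. That Cd74 limit left 822 control cells, since gated cells carry Cd74, and without it (an alternative chosen after seeing the data, as was the removal of cells past the Epcam, Slpi or haemoglobin limits) the shares kept within their intervals.

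Counts of genes 2-fold lower in control members were 57 at the Ifit sum of 20, 70 after thinning, 324 under the Cd74 limit, 18 without cells past the Epcam, Slpi or haemoglobin limits and 45 against deep comparison cells. In knockout the lower counts were 355 under the Cd74 limit, 25 with the leukocyte genes at 0 and 10 without those cells, and the higher count was 134 under the Cd74 limit. Genes higher in knockout over control members were 4 at the Ifit sum of 20, 4 after thinning, 4 as a mean over cells, and 26 under the Cd74 limit, where 131 were lower. With a mean of at least 50 CPM the counts were 70 higher and 1 lower in control, 45 and 6 in knockout, and 1 and 2 for knockout over control. With no filter they were 1609 and 1423, 1301 and 1916, and 1004 and 2004, on more genes of few UMIs.

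Direction turned for Col3a1 of knockout over control (0.14 at the Ifit sum of 20, 0.074 without cells past the Epcam, Slpi or haemoglobin limits) and for Hba-a1 in knockout (0.40 under the Cd74 limit, 0.31 without those cells). Without those cells it also turned for Hba-a1 (0.59) and Apoe (0.17) in control and Igfbp6 (0.49) in knockout. The cause of the other changes was not tested. Of the main shares and counts 62 alternatives stayed near the reported value and 32 moved. Of the values of single genes, 772 stayed, 213 moved and 7 turned, and of the list medians 530 stayed and 94 moved.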
